A study of Homo sapiens with 2 samples.

Results

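Acute-phase proteins are plasma proteins whose output by the liver shifts during inflammation. The 10 genes described here, all members of that group or of its families, are ORM1, ORM2, SERPINA1, SERPINA3, HP, CRP, SAA4, ITIH3, ITIH4 and A2M. The group was chosen with earlier results of these data known. Its genes were matched by the gene symbol of the array annotation, in which 18417 genes had a probe set of their own, among them 9 of the 10. The 1 probe set of SAA4 also names SAA2-SAA4, a readthrough transcript, so its signal cannot be assigned to SAA4 alone. Huh-7, an established human hepatocellular carcinoma line, was transfected with siRNA against DEPDC1 in 1 culture and, as the control, with what the labels call NC in the other. The transfection label of the siRNA culture gives 72 h, while that of the NC culture reads control, and 72 h was taken for both. Total RNA of each culture was put on 1 Affymetrix array. Each group thus holds 1 sample, so replicate error is unknown and no p-value is given. The siRNA sequence, the number of siRNAs and the make-up of NC are not given in the sources used here.

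In the liver, interleukin 6 acts through its receptor, the shared chain gp130 and the transcription factor STAT3, while interleukin 1 acts largely through NF-kB and C/EBP factors. Interleukin 6 raises the transcription of many positive acute-phase genes and interleukin 1 that of some of them, and glucocorticoids can strengthen the effect. Constitutive transcription of the same genes in hepatocytes rests on liver-enriched factors of the HNF1, HNF4, FOXA and C/EBP families. Albumin, transthyretin and transferrin are negative acute-phase proteins, whose output falls in inflammation.

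The DNA just before the transcription start is shown for 5 members, since it is where these factors meet the genes whose transcripts are compared below. The windows are from RefSeq on build GRCh38.p14, which covered 7 of the 10 members with 8 windows. ORM2, HP and A2M had no window, so nothing is said of their sequences. Each sequence holds the 250 bases before the start, 5′ to 3′ on the strand of the gene. ORM1 (chr9:114322848-114323097, strand +), SERPINA1 at the downstream of its listed starts (chr14:94388603-94388852, strand -) and SAA4 (chr11:18236803-18237052, strand -) belong to probe sets with lower values in the siRNA array. SERPINA3 (chr14:94612141-94612390, strand +) and ITIH4 (chr3:52830673-52830922, strand -) had values under the detection threshold in both arrays. Capitals mark matches to the motifs named after the sequences.
ORM1: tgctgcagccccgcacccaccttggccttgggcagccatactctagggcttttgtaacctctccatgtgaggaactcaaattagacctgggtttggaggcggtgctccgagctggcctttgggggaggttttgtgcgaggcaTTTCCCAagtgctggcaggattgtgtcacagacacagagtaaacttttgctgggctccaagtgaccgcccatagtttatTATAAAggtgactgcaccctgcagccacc
SERPINA1: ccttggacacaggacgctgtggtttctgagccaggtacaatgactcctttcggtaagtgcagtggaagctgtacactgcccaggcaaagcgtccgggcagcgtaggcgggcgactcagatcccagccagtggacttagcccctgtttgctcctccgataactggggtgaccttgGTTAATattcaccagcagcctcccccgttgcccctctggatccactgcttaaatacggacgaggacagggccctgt
SAA4: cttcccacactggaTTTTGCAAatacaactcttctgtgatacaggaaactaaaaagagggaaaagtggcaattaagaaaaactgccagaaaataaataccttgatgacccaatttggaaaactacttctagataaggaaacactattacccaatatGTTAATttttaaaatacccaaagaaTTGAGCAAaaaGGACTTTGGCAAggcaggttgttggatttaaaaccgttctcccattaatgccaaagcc
SERPINA3: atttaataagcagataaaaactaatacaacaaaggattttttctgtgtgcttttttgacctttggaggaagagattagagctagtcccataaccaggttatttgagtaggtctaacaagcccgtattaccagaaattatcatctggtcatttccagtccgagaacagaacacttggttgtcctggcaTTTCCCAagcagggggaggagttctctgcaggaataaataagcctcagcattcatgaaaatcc
ITIH4: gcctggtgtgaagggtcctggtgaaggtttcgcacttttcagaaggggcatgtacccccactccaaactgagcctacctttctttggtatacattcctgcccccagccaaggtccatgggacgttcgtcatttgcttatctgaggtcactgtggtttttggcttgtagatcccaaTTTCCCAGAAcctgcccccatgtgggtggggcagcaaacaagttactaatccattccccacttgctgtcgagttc

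Of 8 motifs chosen without sight of the sequences, searched on both strands of 300-base windows that run 50 bases past the start, 6 lay in at least 1 of the 8 member windows. The C/EBP pattern TTGCNNAA lay 3 times in the SAA4 window, starting 236, 69 and 54 bases before the start, and in none of the other 7 member windows. It occurs in 10.5% of all 35116 windows. The HNF4 pattern CAAAGTCC, found in 1.20% of all windows, also lay in the SAA4 window, 58 bases before the start and overlapping the C/EBP match at 54. The STAT palindrome TTCNNNGAA, in 7.66% of all windows, and the type II interleukin 6 response element CTGGGAA, in 10.8%, overlapped each other in ITIH4 at 74 bases before the start. TATAAA, in 11.5% of all windows, lay 29 bases before the start of ORM1 and of CRP. An NF-kB pattern, in 5.68% of all windows, lay in the ITIH3 window at 177. The FOXA pattern TGTTTAC, in 3.42%, and an HNF1 pattern, in 0.322%, lay in no member window.

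A pair of further patterns was chosen after the sequences were read. The windows of ORM1 and SERPINA3 share the stretch GGCATTTCCCAAG, which at 13 bases was the longest run common to any of 27 pairs of member windows. Its core TTTCCCA lay in the ORM1, SERPINA3 and ITIH4 windows, 108, 63 and 75 bases before the start. As the core was taken from the shared stretch, its matches in ORM1 and SERPINA3 were fixed in advance. It occurs in 7.92% of all windows, and in ITIH4 it overlaps the STAT and interleukin 6 matches. The shorter HNF1 pattern GTTAAT, in 6.88% of all windows, lay 76 bases before the downstream start of SERPINA1 and 94 before that of SAA4. These matches describe letters, not bound sites: ORM1, with lower values in the siRNA array, and SERPINA3, under the threshold in both arrays, share the longest stretch.

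Transcripts of ORM1, ORM2, SERPINA1 and A2M were lower in the siRNA array, each by more than 2-fold, and these 4 were the members of the group that reached the detection threshold in both arrays. The threshold is the median of all deposited values, 4.66 on the log2 scale, and is a convention, not a measured background. Of all 11352 genes whose higher value reached it, 98 (0.863%) had siRNA values at least 2-fold lower, and 220 (1.94%) at least 2-fold higher, than in the NC array. The 4 members were all lower, with a median siRNA minus NC difference of -1.72 on the log2 scale, beside a median of 0 over all detected genes. Because the group was chosen with earlier results of these data known, this contrast is a description and not a test. The other 6 members gave no fold of that size that holds against the threshold. The plot of the members' values shows this split.

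**Figure D1:**
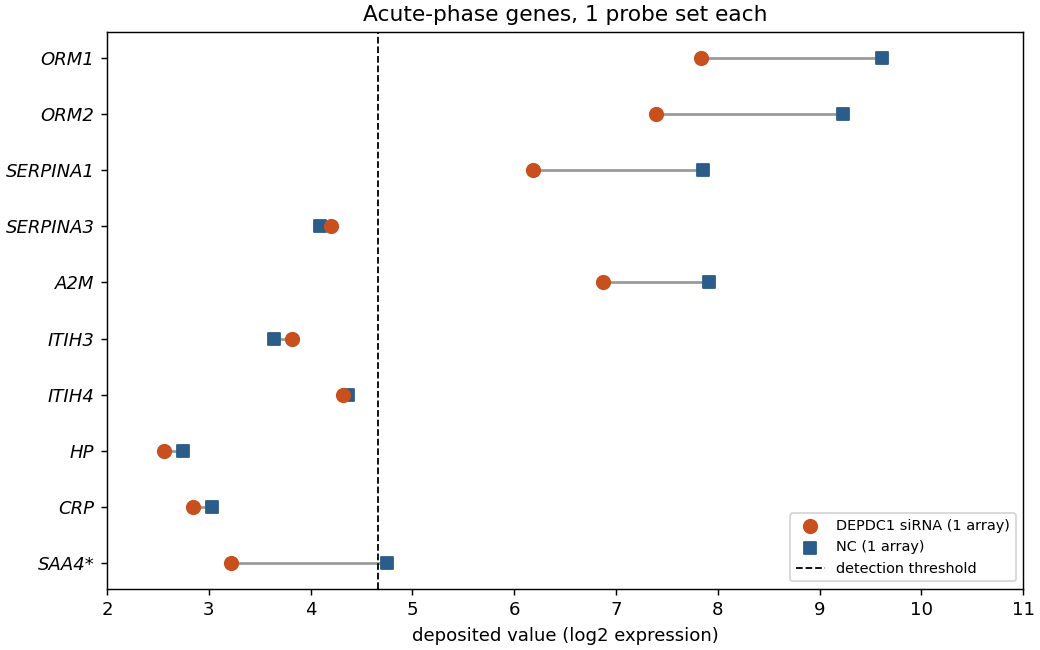
Deposited log2 expression (horizontal axis) of the 10 acute-phase genes, with the DEPDC1 siRNA array as circles and the NC array as squares, 1 array each; the dashed line is the detection threshold of 4.66, and the asterisk marks the SAA4 probe set, which names 2 genes. ORM1, ORM2, SERPINA1 and A2M lie right of the line in both arrays with the circle to the left of the square, SAA4 crosses it, and the other 5 genes lie left of it in both.

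ORM1 and ORM2 encode orosomucoid, also called alpha-1-acid glycoprotein, a heavily glycosylated carrier of basic drugs and lipids in plasma. ORM1 (probe set 8157446, Entrez gene 5004, chromosome 9) had a log2 expression of 7.83 in the siRNA array, against 9.61 in the NC array, a difference of -1.78 or 3.43-fold lower. ORM2 (probe set 8157450, Entrez gene 5005, chromosome 9) had 7.39 in the siRNA array, against 9.23 in the NC array, a difference of -1.84 or 3.57-fold lower. Their differences lay at ranks 12 and 11 of the 11352 detected genes, counted from the lowest. The genes are adjacent and so alike in sequence that RNA of either can bind probes of the other, so they do not count as independent measurements.

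SERPINA1 encodes alpha-1-antitrypsin, the plasma inhibitor of neutrophil elastase. Its probe set 7981068 (Entrez gene 5265, chromosome 14) gave 6.19 in the siRNA array, against 7.86 in the NC array, a difference of -1.67 or 3.18-fold lower, at rank 17 from the lowest. SERPINA3, which encodes alpha-1-antichymotrypsin, an inhibitor of cathepsin G and a strong positive acute-phase protein, lies in the same gene cluster. Its values were 4.20 in the siRNA array and 4.09 in the NC array, both under the threshold, so no fold is given. Of these acute-phase serpins, SERPINA1 alone could thus be compared.

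A2M encodes alpha-2-macroglobulin, a broad protease trap that is a major acute-phase protein in the rat. It had 6.87 in the siRNA array, against 7.91 in the NC array (probe set 7960947, Entrez gene 2, chromosome 12). The difference of -1.05, or 2.07-fold lower, is close to the 2-fold limit, and ranked 87 from the lowest of the detected genes. It was smaller in size than the differences of ORM1, ORM2 and SERPINA1, which lay between -1.84 and -1.67.

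SAA4 encodes the constitutive serum amyloid A of high density lipoprotein, which unlike SAA1 and SAA2 is not strongly induced in inflammation. The probe set annotated to SAA2-SAA4 and SAA4 (7946977, chromosome 11) gave 3.22 in the siRNA array, under the threshold, and 4.75 in the NC array, just above it. The measured difference was -1.54, and against the threshold the transcript was at least 1.07-fold lower. It is kept out of the count above because its probe set names 2 genes. It also reached the threshold through the NC array alone, so its direction was fixed by the filter.

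HP, CRP, ITIH3 and ITIH4 lay under the threshold in both arrays. HP encodes haptoglobin, which binds free haemoglobin, and gave 2.56 in the siRNA array and 2.75 in the NC array. CRP, the pentraxin C-reactive protein, which binds phosphocholine on microbes, gave 2.84 in the siRNA array and 3.03 in the NC array. These are textbook liver products, and neither had a level above the threshold in either culture. ITIH3 and ITIH4 encode heavy chains of the inter-alpha-trypsin inhibitor family, of which ITIH3 can be linked to hyaluronan. ITIH3 gave 3.82 in the siRNA array and 3.64 in the NC array, and ITIH4 gave 4.32 in the siRNA array and 4.37 in the NC array. Background signal compresses the differences of dim probe sets, so these values do not show that the levels were alike.

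**Figure D2:**
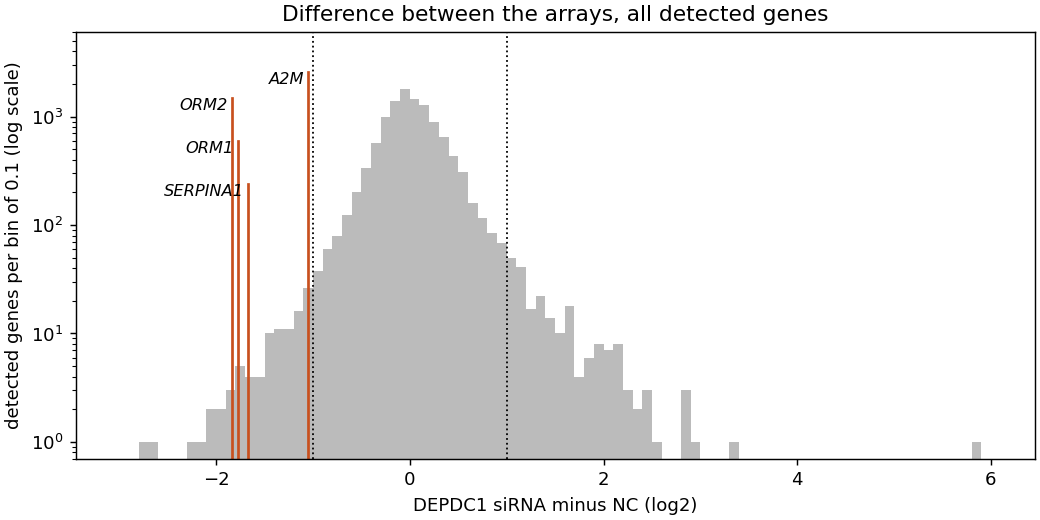
Number of detected genes (vertical axis, log scale) by siRNA minus NC difference on the log2 scale (horizontal axis, bins of 0.1) for 11352 genes, with orange lines at ORM2, ORM1, SERPINA1 and A2M and dotted lines at a 2-fold difference in either direction; line heights carry no value. ORM2, ORM1 and SERPINA1 lie at -1.84, -1.78 and -1.67 in the sparse lower tail, and A2M at -1.05 lies just past the 2-fold limit.

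The spread of the comparison gives these differences a scale, though no replicate error. Over detected genes the siRNA minus NC differences had an SD of 0.40 on the log2 scale, and 90% of them, between the 5th and 95th percentiles, lay between -0.52 and 0.65. Of 444 genes with at least 2 detected probe sets, the differences of the same gene ranged over a median of 0.087 and a 90th percentile of 0.41. That range measures disagreement of probe sets on the same RNA, not variation between cultures. Each member had 1 probe set, so no member could be checked by another probe set of its own.

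The targeted transcript was checked from the same table. DEPDC1 had 5.15 in the siRNA array, against 7.82 in the NC array, a difference of -2.67. Hepatocyte identity markers (ALB, AFP, TTR, APOA1, APOB, SERPINA1, TF, FGB and ASGR1) reached the threshold for 9 of 9 measured genes. All 9 did so in both arrays, 8 with a lower and 1 with a higher value, beside 47.9% lower over all genes. The median difference of this list was -0.71, so lower values were not confined to the acute-phase members. AFP differed by -1.97, at rank 7 from the lowest and thus further down than any member. APOB differed by -1.35, TF by -1.09 and TTR by 1.41. The SERPINA1 value given above is the fourth of that list past 2-fold in the lower direction, a size that 0.863% of all detected genes reached. Their summed linear signal was 7141 in the siRNA array and 11920.5 in the NC array. Of 14 fibroblast and stellate cell markers 7 reached the threshold, and LUM, FBN1 and COL1A2, 3 of these, had siRNA values at least 2-fold above NC. The other 4 differed by little, DES by 0.11, PDGFRA by 0.09, COL1A1 by 0.06 and COL3A1 by -0.04, the last one named after its value was seen, and the median of the 7 was 0.11. The summed linear signal of the list was 1611 in the siRNA array and 569.8 in the NC array, and LUM made up 75.8% of that gap. DCN, ACTA2 and PDGFRB, also named with their values known, were below the threshold in both. The part of these markers in the lower acute-phase values was not tested. Both cultures are labelled as the single line Huh-7, so the marker lists are read as transcripts of that line, not as shares of cell types. In bulk RNA, fewer expressing cells and less RNA per cell cannot be told apart.

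Most members sit in small clusters of related genes, and the lower values did not extend evenly over the clusters. In the SERPINA cluster on chromosome 14, taken in gene order from SERPINA10 to SERPINA3, 5 of 10 genes reached the threshold. SERPINA6, which encodes the cortisol carrier transcortin, had 4.66 in the siRNA array, just under the threshold, against 5.76 in the NC array, and was at least 2.15-fold lower. SERPINA5, the protein C inhibitor, had 6.65 in the siRNA array and 7.47 in the NC array, a difference of -0.81. SERPINA10, which inhibits coagulation factor Xa, went the other way with 5.17 in the siRNA array and 4.81 in the NC array, a difference of 0.36. SERPINA4, the kallistatin gene, reached 4.86 in the siRNA array, against 4.19 and thus under the threshold in the NC array, at least 1.15-fold higher. SERPINA6 and SERPINA4 each reached the threshold through 1 array alone, which fixed their direction. Among the genes of the cluster at or above it in both arrays, SERPINA1 and SERPINA5 had lower and SERPINA10 a higher value.

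On chromosome 9 the pair ORM1 and ORM2 lies between COL27A1 and AKNA, which, like KIF12, are named here for their place. COL27A1 had 6.19 in the siRNA array and 6.25 in the NC array, and AKNA lay under the threshold at 4.51 in both. AMBP, which encodes alpha-1-microglobulin and bikunin, the light chain that joins the ITIH heavy chains, begins the plotted stretch. AMBP had 9.73 in the siRNA array, against 10.80 in the NC array, a difference of -1.07 or 2.09-fold lower. KIF12, between AMBP and COL27A1, had 5.79 in the siRNA array and 5.73 in the NC array. The 2-fold lower values on this stretch were thus those of AMBP, ORM1 and ORM2, all of which encode plasma lipocalins.

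At the other loci neither the neighbours nor the relatives gave a 2-fold difference. ITIH1, SAA1, SAA2, HPR and PZP are named for their place beside a member or their kinship to it, with their values known. ITIH1 lay under the threshold like ITIH3 and ITIH4, whereas ITIH2, the heavy chain gene on another chromosome, was detected with 8.63 in the siRNA array and 9.01 in the NC array. The inducible amyloid genes SAA1 and SAA2 lay under the threshold, SAA1 at 1.98 in the siRNA array and 2.29 in the NC array. HPR, the haptoglobin-related gene next to HP, lay under it as well, with 3.53 in the siRNA array and 3.57 in the NC array. PZP, the pregnancy zone protein gene and a close relative of A2M, gave 3.01 in the siRNA array and 3.19 in the NC array. Over all 22 measured sequence relatives 7 reached the threshold, 3 of them through 1 array alone. SERPINA6 and AMBP passed 2-fold in the lower direction and no relative did so in the higher, and the median over the 7 was -0.37. CD109, an alpha-2-macroglobulin family member on the cell surface, had 4.73 in the siRNA array and 3.82 in the NC array, at least 1.05-fold higher. It reached the threshold through the siRNA array alone, which fixed its direction.

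**Figure D3:**
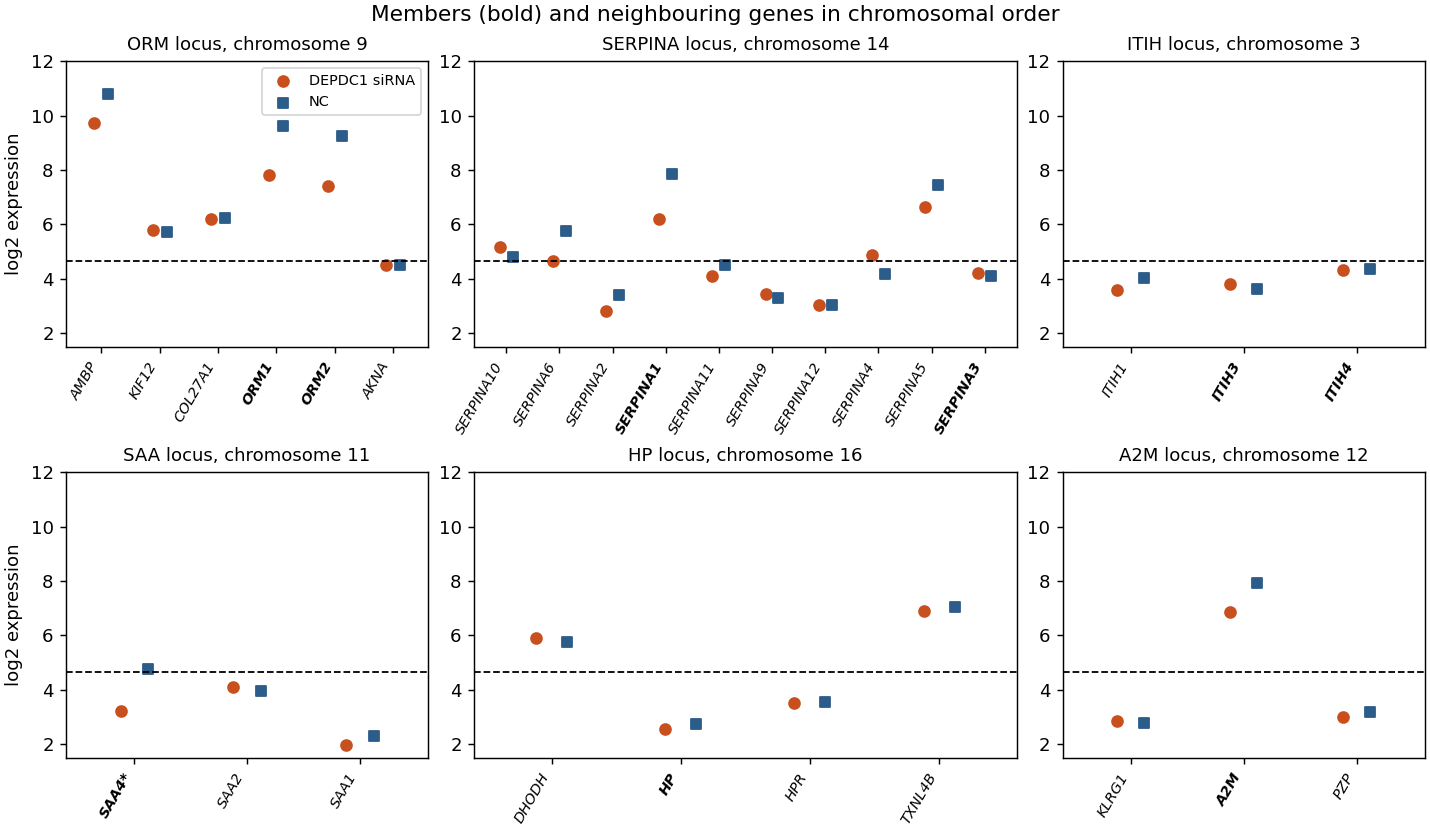
Log2 expression (vertical axes) of members (bold) and neighbouring genes at 6 loci, in chromosomal order without distances, with the DEPDC1 siRNA array as circles, the NC array as squares, 1 array each, and the detection threshold of 4.66 dashed; the asterisk marks the probe set that names SAA2-SAA4 and SAA4. Circles lie clearly below squares at AMBP, ORM1, ORM2, SERPINA6, SERPINA1, SERPINA5, SAA4 and A2M, while the ITIH locus lies under the threshold throughout.

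Other positive acute-phase proteins had a median difference of -0.23 over the 12 of 24 measured genes that reached the threshold. Of the 11 that reached it in both arrays, 7 had a lower and 4 a higher value. Over all genes 10660 reached it in both arrays, 5103 of them (47.9%) with a lower and 5332 with a higher value. At least 2-fold lower was C3, the central complement component, with 8.73 in the siRNA array and 10.15 in the NC array, a difference of -1.42, larger in size than that of A2M. The fibrinogen chain genes followed, FGG with a difference of -0.78, FGA with -0.78 and FGB with -0.46. VTN, vitronectin, differed by -0.83. HPX, the haem carrier haemopexin, lay higher, with 6.83 in the siRNA array and 6.02 in the NC array, a difference of 0.81. The remaining 12 of the 24 lay under the threshold in both arrays and could not be compared.

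Negative acute-phase proteins had a median of -0.52 over the 10 of 13 measured genes that reached the threshold. AHSG and SERPINA6 did so through the NC array alone, which fixed their direction, and of the other 8 genes 5 had a lower and 3 a higher value, beside 47.9% lower over all genes. TF, transferrin, had 9.90 in the siRNA array and 10.99 in the NC array, a difference of -1.09. AHSG, the mineral-binding fetuin-A, was at least 1.82-fold lower, and SERPINA6, which also belongs to this list, at least 2.15-fold. APOA1 differed by -0.71 and RBP4, the retinol carrier, by -0.53. TTR, transthyretin, was the 1 member of this list at least 2-fold higher, with 9.72 in the siRNA array and 8.31 in the NC array. Both lists held genes on either side of 0, HPX and TTR being the highest in theirs, and the difference between the lists was not tested.

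Among ligands and receptors upstream of these genes no difference passed 2-fold, a size that 0.863% of all detected genes reached in the lower and 1.94% in the higher direction. Of 13 measured genes of the interleukin 6 family 8 reached the threshold, with a median of -0.19. IL6ST, which encodes gp130, had 8.17 in the siRNA array and 8.44 in the NC array, a difference of -0.27. LIFR, the leukaemia inhibitory factor receptor, differed by -0.41, IL6R by 0.29 and IL10RB, a chain shared by the interleukin 10 and 22 receptors, by 0.49. Of the ligands, IL11 differed by -0.27 and CTF1 by -0.20, and IL6 itself, a gene singled out with its value known, was below the threshold with 3.13 in the siRNA array and 3.23 in the NC array. In the interleukin 1 and TNF receptor pathway 10 of 14 measured genes reached the threshold, with a median of 0.089. The receptor IL1R1 differed by 0.41, its partner IL1RAP by -0.30 and TNFRSF1A by 0.36.

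Of 17 measured JAK and STAT3 genes 14 reached the threshold, with a median of -0.15. Of the 12 that did so in both arrays 7 had a lower and 5 a higher value, beside 47.9% lower over all genes. STAT3 had 8.30 in the siRNA array, against 7.50 in the NC array, a difference of 0.80 or 1.74-fold higher. The kinase TYK2 and the phosphatase PTPN11 both differed by 0.57. SOCS2, a feedback inhibitor of growth hormone signalling, had 5.87 in the siRNA array, against 4.39 and thus under the threshold in the NC array, at least 2.31-fold higher. It reached the threshold through the siRNA array alone, which fixed its direction. SOCS3, the feedback inhibitor of gp130, lay under the threshold with 4.23 in the siRNA array and 4.47 in the NC array, and is named after its value was seen. JUNB, a target of STAT3 in many cells, differed by -0.70. Transcript levels do not report the phosphorylation through which STAT3 acts.

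Among transcription factors known to act on acute-phase genes, 22 of 22 measured genes reached the threshold. All 22 did so in both arrays, 15 with a lower and 7 with a higher value, beside 47.9% lower over all genes, and their median was -0.34. CEBPA, a C/EBP factor of the resting hepatocyte, had 6.76 in the siRNA array, against 8.07 in the NC array, a difference of -1.32, the 1 difference past 2-fold in this list. CEBPB and CEBPD, the C/EBP factors induced in the acute phase and named after their values were seen, differed by 0.08 and 0.26. ONECUT1, also called HNF6, differed by -0.95, GATA4 by -0.85 and HNF4G by -0.72. REL, an NF-kB subunit, had 6.25 in the siRNA array and 7.18 in the NC array, a difference of -0.93. Glucocorticoid response genes, of which 7 of 9 reached the threshold, had a median of -0.12. SGK1, a kinase, differed by -0.99 and TSC22D3, which encodes GILZ, by 0.37.

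**Figure D4:**
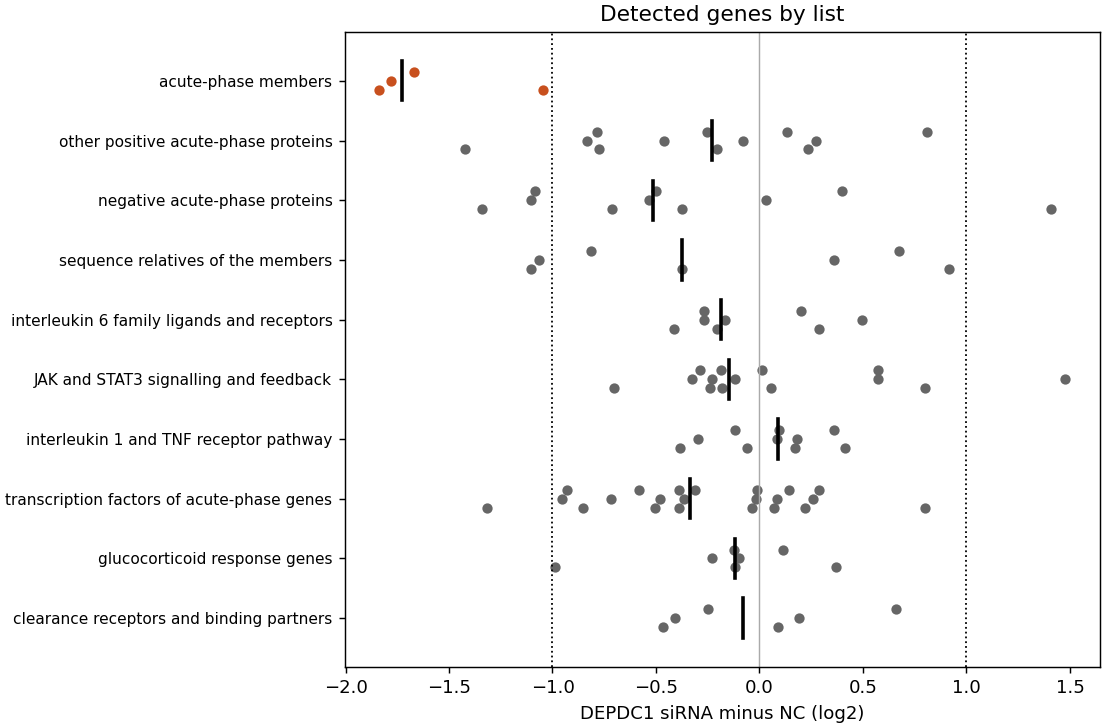
SiRNA minus NC difference on the log2 scale (horizontal axis) of each detected gene, 1 point per gene, in the 10 lists named down the page, with a black bar at each list's median and dotted lines at a 2-fold difference; vertical offsets within a list carry no value. The 4 acute-phase genes, in orange at the top, all lie left of the lower 2-fold line with a median of -1.72. The medians of the other plotted lists lie between -0.52 and 0.089. Lists of cell type markers are not plotted, and their medians lay between -0.71 for hepatocyte identity markers and 0.31 for cholangiocyte markers.

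The closeness of other genes to the members was measured as the distance between their pairs of log2 values over the 2 arrays, among detected genes of the other lists. For ORM2, with the lowest difference, the nearest genes were ONECUT1 at a distance of 0.69, VTN at 0.76 and GATA4 at 0.77. For A2M, with the difference nearest to 0, they were CEBPA at 0.19, SERPINA5 at 0.50 and IL1RAP at 0.54. With 2 arrays such a distance combines a probe set's level with its difference and says nothing of shared control.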

How the data were processed

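Total RNA was labelled as biotinylated cRNA by the Affymetrix protocol, per the labels' protocols. The software was Transcriptome Analysis Console 3.0 and Affymetrix Expression Console, per the submitters' processing notes; background correction and normalization are not given in the sources used here. The deposited table holds 1 value for each of 33297 probe sets and 2 arrays, taken as log2 expression from its range of 1.39 to 12.7. The sorted deposited columns differed by at most 0.0997, so no scaling was added. The number of arrays limits the precision.

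By GEO's platform annotation 19460 probe sets name 1 gene, 1754 name several and 12083 are not listed with a gene; symbols were updated through Entrez identifiers for 19429 probe sets. A gene was represented by its 1-gene probe set with the highest mean. Python 3.11.15, numpy 2.4.6 and pandas 2.3.3 computed siRNA minus NC differences, and counts and medians were tested on simulated data. Folds with a value under the threshold are bounds against it. No test between groups was possible. Named genes were all members, DEPDC1, and from each list every gene past 2-fold. Beside these came genes among the 6 largest absolute differences of a list, not all of which are printed. Others are marked as named for their place or with their values known. The members and lists were chosen with earlier results of these data known. Protein sequences were not used here.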

Additional observations from a re-analysis of the deposited data

How the results depend on the processing

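The count of 4 members at least 2-fold lower and 0 at least 2-fold higher stayed at 4 and 0 under each alternative run, except that the measured values gave 5 lower when probe sets of several genes were included. The added gene was SAA4, whose NC value alone reached the threshold and whose bound of 1.07-fold is under 2-fold. Over the alternatives the difference of A2M lay between -1.06 and -1.02, and that of SERPINA1 between -1.68 and -1.64. That of ORM1 lay between -1.78 and -1.75, and that of ORM2 between -1.84 and -1.80. Each of these 4 had 1 probe set with both values above the threshold, so filters, fold limits and averaging could not move its difference. Only median centring and quantile normalization could, so these narrow ranges say little of how firm the differences are. The members' median of -1.72 became -1.05 with the detection threshold at the 25th percentile of all values, which admits 7 members, and -0.19 with no detection filter over 9 members, because members with values under the main threshold then enter. Of all genes, 137 were at least 2-fold higher with the threshold at the 75th percentile, which leaves 5757 genes. With 1.5-fold in place of 2-fold, 424 genes were lower and 685 higher. Centring each array on its median moved the median of all detected genes to 0.033. No paired analysis was possible because each group holds 1 array, and no replicate could be left out. Dim probe sets limit what can be said of HP, CRP, SERPINA3, ITIH3 and ITIH4.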

Other observations

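Receptors that clear these plasma proteins were measured in the same arrays. Of 8 such receptors and binding partners 6 reached the threshold, none differed by 2-fold, and their median difference was -0.079. LRP1, the receptor that takes up complexes of alpha-2-macroglobulin with proteases, had 8.13 in the siRNA array, against 7.47 in the NC array, a difference of 0.66, while A2M itself differed by -1.05. ASGR1 and ASGR2, the subunits of the asialoglycoprotein receptor, which binds desialylated orosomucoid, differed by -0.47 and -0.41. CD163, the haptoglobin receptor of macrophages, singled out with its value known, was below the threshold with 2.90 in the siRNA array and 3.02 in the NC array.

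Macrophage markers reached the threshold for 4 of 10 measured genes. LYZ, lysozyme, was at least 2-fold higher, with 6.05 in the siRNA array and 4.85 in the NC array. CD14 differed by 0.27 and MARCO by 0.0049. C1QB was at least 1.21-fold lower, but reached the threshold in the NC array alone, which fixed its direction. The summed linear signal of the list was 352.7 in the siRNA array and 307.6 in the NC array, and LYZ made up 83.1% of that gap. Endothelial markers reached the threshold for 1 of 8 measured genes and lymphocyte markers for 1 of 7. Cholangiocyte markers reached it for 4 of 7, all 4 in both arrays with a higher value in the siRNA array and none by 2-fold. Of all 10660 genes that reached it in both arrays, 5332 had a higher value. KRT19 differed by 0.52 and SPP1 by 0.56, while EPCAM differed by 0.099 and SOX9 by 0.09.

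In 225 of the 11352 detected genes, or 1.98%, the deposited values of both arrays were identical, and AKNA, next to ORM2, had identical values as well though under the threshold. No member had identical values in both arrays.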
